A study of Mus musculus with 5 samples.

Results

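Polyadenylated RNA of MEFB cells was compared with that of MEFF cells along mouse chromosome 17, on tiling arrays in which each probe reads transcription against genomic DNA. The comparison rests on 3 of the 5 arrays of the study, chosen by their labels: 1 array of MEFB polyA RNA and 2 arrays of MEFF polyA RNA. The other 2 arrays carry total RNA of MEFF and are given only for their level. Both lines are embryo fibroblasts of the FVBN strain that became immortal in culture without an introduced gene, taken at 12.5 days after conception. MEFF has the genotype written Thp/+ and MEFB the genotype +/Thp. Thp is a deletion of at least 4.6 Mb, which the labels place between the genes T and Sod2. Every array therefore comes from cells with 1 copy of that interval, and MEFF and MEFB keep the copy of opposite parents. No array of cells without the deletion was compared here. Each genotype is represented by 1 cell line, so genotype, line and any later change in culture cannot be told apart. MEFB has no replicate, and nothing in the labels says that the MEFF arrays came from separate cultures.

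The Thp interval holds the imprinted cluster around Igf2r. Igf2r encodes the receptor that carries insulin-like growth factor 2 and mannose 6-phosphate proteins to lysosomes, and in most mouse tissues it is transcribed from the maternal chromosome. Airn is a long noncoding RNA that starts in an intron of Igf2r, runs in the opposite direction and is transcribed from the paternal chromosome. Slc22a2 and Slc22a3, genes of organic cation transporters in the same cluster, are imprinted mainly in extraembryonic tissue. Genotypes are by convention written with the maternal chromosome in front, which makes MEFF the line that keeps the paternal copy and MEFB the line that keeps the maternal copy.

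The start regions of 4 transcripts on which the results turn are shown first, because they lie at the ends of the transcribed stretches described below. Igf2r and Airn are the opposed pair of the cluster, and Thbs2 and Cdc42ep3 are genes with high levels in MEFB elsewhere on the chromosome. Each sequence is the RefSeq window from 250 bases before to 50 bases after the transcript's start, read 5′ to 3′ on the transcript's strand of GRCm38.p6, with CG in capitals. The windows lie at chr17:12769657-12769956 on the minus strand (Igf2r), chr17:12741061-12741360 on the plus strand (Airn), chr17:14694213-14694512 on the minus strand (Thbs2) and chr17:79355042-79355341 on the minus strand (Cdc42ep3).
Igf2r: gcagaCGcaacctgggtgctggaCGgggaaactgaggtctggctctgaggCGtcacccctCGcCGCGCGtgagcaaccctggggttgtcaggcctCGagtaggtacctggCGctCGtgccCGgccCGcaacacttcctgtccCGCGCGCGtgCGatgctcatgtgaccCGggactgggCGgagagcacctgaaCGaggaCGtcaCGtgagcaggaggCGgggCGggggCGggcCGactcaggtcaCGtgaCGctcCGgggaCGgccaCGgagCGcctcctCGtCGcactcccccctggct
Airn: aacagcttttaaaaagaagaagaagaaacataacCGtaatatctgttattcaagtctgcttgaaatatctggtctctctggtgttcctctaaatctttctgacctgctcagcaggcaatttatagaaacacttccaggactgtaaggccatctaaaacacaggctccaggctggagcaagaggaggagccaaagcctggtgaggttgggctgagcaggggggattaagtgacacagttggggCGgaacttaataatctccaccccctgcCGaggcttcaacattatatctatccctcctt
Thbs2: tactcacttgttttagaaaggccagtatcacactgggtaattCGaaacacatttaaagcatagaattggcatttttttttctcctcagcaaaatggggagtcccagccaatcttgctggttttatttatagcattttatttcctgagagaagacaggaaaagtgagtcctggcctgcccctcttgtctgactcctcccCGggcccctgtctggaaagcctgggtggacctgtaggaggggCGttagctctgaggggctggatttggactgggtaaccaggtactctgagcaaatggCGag
Cdc42ep3: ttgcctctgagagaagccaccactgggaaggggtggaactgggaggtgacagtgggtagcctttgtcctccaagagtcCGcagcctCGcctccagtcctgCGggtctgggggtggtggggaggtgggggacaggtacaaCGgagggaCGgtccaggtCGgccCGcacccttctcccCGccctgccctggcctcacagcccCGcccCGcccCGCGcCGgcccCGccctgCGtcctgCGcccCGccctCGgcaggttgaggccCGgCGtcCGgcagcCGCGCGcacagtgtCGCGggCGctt
The Igf2r window holds CG 34 times, and 7.7% of the 32851 windows of the table hold as many or more. The Cdc42ep3 window holds it 27 times (15.5% of windows hold as many or more). The Airn window holds it 3 times and the Thbs2 window 4 times, against a median of 7 over all windows. The letters TATAAA, searched on both strands, occur in the Airn and Thbs2 windows, as in 13.6% of all windows, and in neither of the others. These counts describe the windows only.

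Levels below are means of log2(cDNA/input) centred on the median of each array, so a level near 0 is near the middle of all probes. A gene's level is the mean over the probes in its exons alone, and 794 genes had at least 5 such probes, of which 712 are protein-coding. As MEFB has no replicate, the main rule asked that the MEFB array lie outside both MEFF polyA arrays by at least 1 on the log2 scale from the nearer of them, a 2-fold difference in ratio. The distance to the nearer array is called the gap. Beside it stands limma's moderated test on all 5 arrays with Benjamini-Hochberg adjustment over all genes, which assumes that the lone MEFB array varies like the others. The test was run on the intensities as deposited and after normexp background correction.

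The MEFF polyA arrays differed from each other in range, and MEFB lay between them. The SD of the levels over 15383 windows of 5 kb was 0.371 and 0.630 on the MEFF polyA arrays and 0.575 for MEFB. The mean level of exon probes was 1.16 and 1.80 on the MEFF polyA arrays and 1.57 for MEFB, against -0.100, -0.207 and -0.167 for probes between genes. At any distance, MEFB lay above both MEFF polyA arrays at 21.4% of the genes and below both at 33.2%, so a side alone carries little. The input DNA also differed. In 885 windows of 100 kb, the SD of the input difference between MEFB and MEFF was 0.172, against 0.104 between the MEFF polyA arrays. The median difference was 0.151 in the most GC-rich 25% of the windows and -0.248 in the most GC-poor 25%. Its part in the ratios was not tested directly, and the number of genes that pass with the cDNA channel alone is given below.

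The Igf2r cluster showed opposite transcription in the lines. The body of Airn was transcribed in MEFF and lay near the level between genes in MEFB, while the exons of Igf2r were several-fold higher in MEFB. Over the part of Airn past the end of Igf2r, 170 probes averaged 1.74 and 2.71 on the MEFF polyA arrays, 2.05 and 2.00 with total RNA and -0.08 in MEFB. All 4 MEFF arrays were thus high there, and MEFB alone was low. MEFB lay 1.82 below the nearer MEFF polyA array. Over the stretch where Airn overlaps introns of Igf2r, 170 probes averaged 2.02 and 3.13 on the MEFF polyA arrays, 2.26 and 2.21 with total RNA and 0.30 in MEFB.

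The annotated Airn runs from 12934177 to 13052988 on the plus strand of NCBIM37 and Igf2r from 12875272 to 12962530 on the minus strand, so that 28.4 kb are shared. In bins of 3 kb from the Airn start onwards, all 22 placed bins lay lower in MEFB than in both MEFF polyA arrays, 21 of them by 1 or more. MEFB ranged from -0.31 to 0.54 over these bins, with a median of 0.11. The MEFF polyA arrays ranged from 1.36 to 2.58 and from 2.15 to 3.82. The step was abrupt. In the 3 kb before the Airn start the levels were -0.06 and 0.13 on the MEFF polyA arrays and 0.00 in MEFB, and in the 3 kb after it they were 1.96 and 2.88 against 0.28. Probes beyond 69 kb from the start could not be placed, so the far part of Airn is not described in genome positions.

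**Figure D1:**
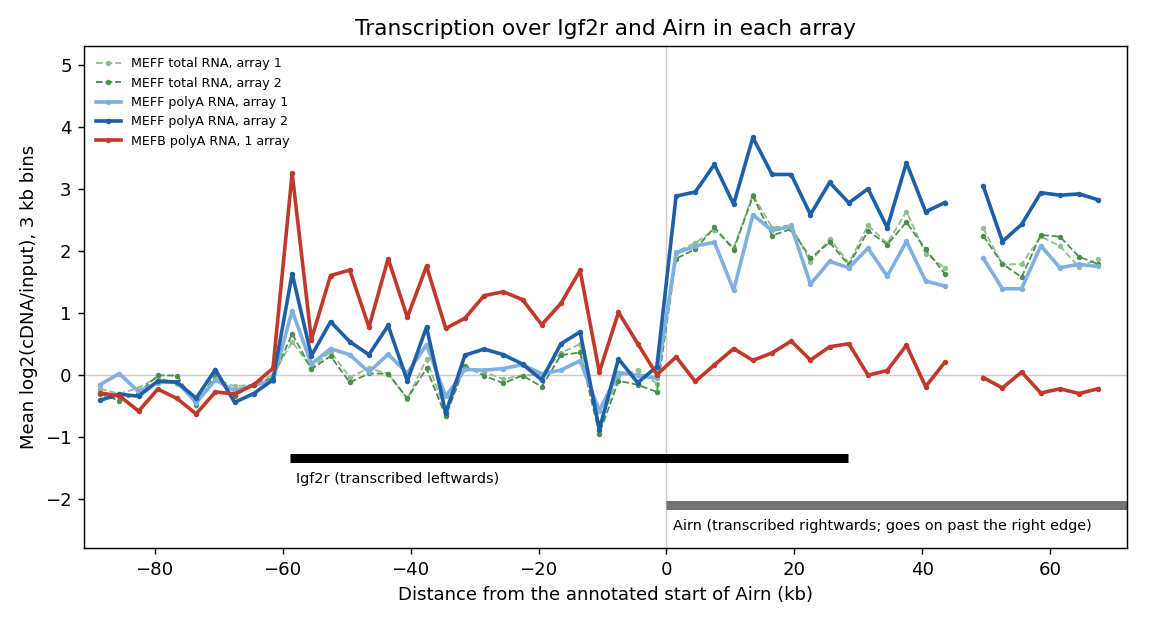
Mean log2(cDNA/input) in 3 kb bins by distance in kb from the annotated Airn start, 1 line per array, with the extent of Igf2r and Airn drawn below. MEFF arrays step up at the Airn start and stay above 1.3, MEFB stays between -0.31 and 0.54 there, and over Igf2r to the left MEFB is the highest in most bins.

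Igf2r itself had the reverse order. Its 75 exon probes averaged 1.504 and 2.29 on the MEFF polyA arrays, 0.88 and 0.77 with total RNA and 4.42 in MEFB. MEFB was above each MEFF array, by 2.13 from the nearer one, which is 4.37-fold in ratio. The fitted difference was 2.52 with SE 0.40 (limma, adjusted p = 0.195), and 2.38 with SE 0.42 after normexp (limma, adjusted p = 0.00212). Within arrays, Igf2r was number 16 of 794 genes by level per probe in MEFB and number 265 and 292 on the MEFF polyA arrays. After loess normalization within arrays the gap over the 73 exon probes outside Airn was 1.06, against 2.15 as deposited.

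Introns of Igf2r were also higher in MEFB. Outside Airn, 342 intron probes averaged -0.15 and -0.09 on the MEFF polyA arrays and 0.49 in MEFB. The MEFF values were close to those between genes, and MEFB lay 0.58 above the nearer one. Of 20 bins of 3 kb over Igf2r outside Airn, 19 were above both MEFF polyA arrays in MEFB. Their median was 1.08 in MEFB, 0.08 and 0.32 on the MEFF polyA arrays and 0.03 and -0.02 with total RNA. The 2 exon probes of Igf2r inside Airn read 0.28 and 0.65 in MEFF and 2.12 in MEFB.

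Neighbouring genes of the cluster were low on every array. Slc22a3 averaged -0.14 and -0.12 on the MEFF polyA arrays and -0.29 in MEFB over 25 probes. Slc22a2 averaged -0.35 and -0.73 against -0.64. The plasminogen gene Plg, which neighbours Slc22a3, averaged -0.29 and -0.53 against -0.65. None of these levels rose above that of probes between genes by more than the spread over arrays, so no parental difference could be read from them. Of the 7 genes listed for the cluster 5 were measured, and 1 of these was past the rule.

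The measured genes in the rest of the Thp interval mostly differed little between the lines. Of 41 genes annotated between the positions the labels give for the interval, 22 were measured. The last probe placed in the interval lay at 13003310 on NCBIM37, so its end towards Sod2 was not read. Of the measured genes 2 were higher in MEFB by the rule, Igf2r and the pseudogene Gm17087. That is 9.09% of them, against 5.04% of all genes for both directions together. Gm17087 read 0.61 and 1.60 on the MEFF polyA arrays and 3.09 in MEFB over 6 probes, and a pseudogene can share its signal with its parent gene. It lies inside the annotated span of the pseudogene Gm15425, whose 16 probes read 0.68 and 1.25 against 1.42. The input difference of MEFB from MEFF over Gm17087 was -0.50, and its gap was 1.12 with cDNA alone, against 1.49 as deposited. The median difference over the interval was -0.10, against -0.05 over all genes.

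Genes expressed from the interval in both lines included Qk, Map3k4, Agpat4 and Pde10a. Qk, which encodes the RNA-binding protein Quaking, read 1.90 and 2.69 on the MEFF polyA arrays and 3.20 in MEFB, a gap of 0.51. Map3k4, a kinase of the stress-activated MAP kinase cascade, read 2.16 and 3.12 against 2.62, inside the MEFF range. Agpat4, an acyltransferase of phospholipid synthesis, read 1.95 and 2.72 against 1.89. The phosphodiesterase gene Pde10a read 1.19 and 1.95 against 1.39, also inside the range. The mesoderm factor T read 0.14 and 0.09 against -0.08. The median log2 input inside the interval was slightly lower than outside it, by a like amount on each array. The difference was -0.05 and -0.06 for the MEFF polyA arrays and -0.07 for MEFB. A 2-fold lower input, 1 on this scale, was not seen on these arrays, and copy number was not tested.

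On the whole chromosome, 29 of 794 genes were higher in MEFB by the rule (3.65%) and 11 were lower (1.39%). With limma on the intensities as deposited, 0 genes passed an adjusted p of 0.05, 67 had an unadjusted p under 0.05, and the lowest adjusted p was 0.06. After normexp 51 genes passed (6.42%), 24 higher (3.02%) and 27 lower (3.40%), and with quantile normalization 161 passed. Of the 40 genes past the gap rule, 32 passed limma after normexp. Rule and test used the same arrays, so this overlap is not independent support. With the cDNA channel alone, 25 of the 29 higher genes and 7 of the 11 lower genes stayed past the gap rule. The balance of directions depended on the scaling: higher genes were 72.5% of those past the rule as deposited, 53.5% after quantile normalization, 43.7% after normexp and 81.6% with cDNA alone. Normexp moved the median difference of all genes to -0.24 and cDNA alone moved it to 0.12, against -0.05 as deposited. Genes closest to the threshold were A930001N09Rik with a gap of 1.00 inside it and Gm11110 with a gap of -0.96 outside it.

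**Figure D2:**
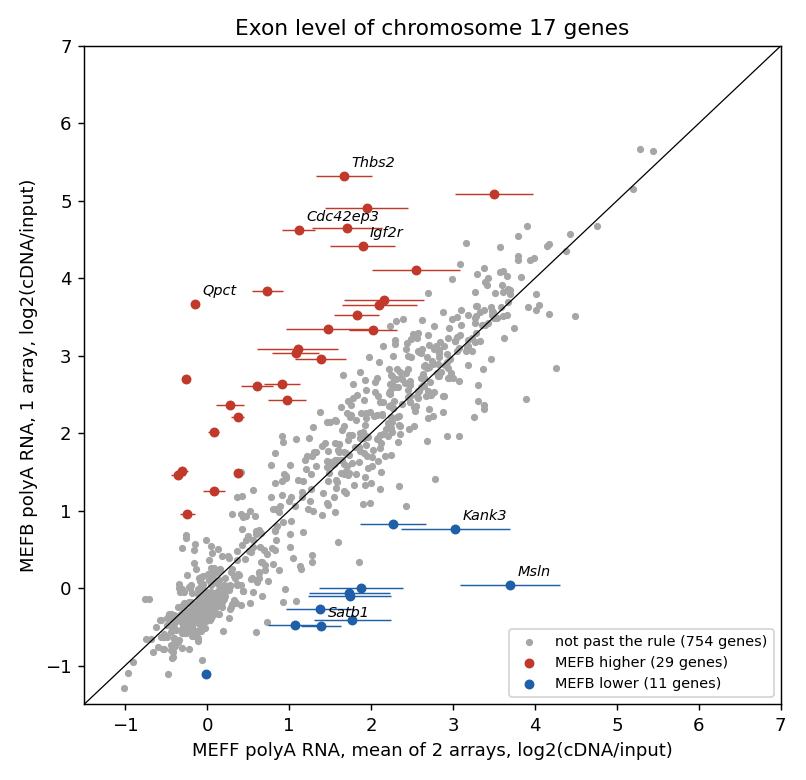
Exon level of each of 794 genes in MEFB (y axis) against the mean of the MEFF polyA arrays (x axis), both as log2(cDNA/input); horizontal bars span the MEFF arrays for the genes past the rule, and the line marks equal levels. The 29 higher genes (red) and 11 lower genes (blue) lie off the band of the other 754 genes, with Qpct and Thbs2 far above it and Msln far below.

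The genes higher in MEFB included some of the extracellular matrix and its receptors. Thbs2 encodes thrombospondin 2, a secreted glycoprotein of the matrix. It read 1.33 and 2.02 on the MEFF polyA arrays, 0.51 and 0.40 with total RNA and 5.32 in MEFB over 45 probes. No MEFF array came near MEFB, which was 3.31 above the nearer one, 9.90-fold in ratio (after normexp, limma's adjusted p = 5.48e-05). Thbs2 was number 3 of 794 genes in MEFB and number 306 and 336 on the MEFF polyA arrays. Lama1, the alpha 1 chain of laminin in basement membranes, read -0.27 and -0.44 on the MEFF polyA arrays and 1.47 in MEFB over 83 probes (limma after normexp, adjusted p = 0.000314). The MEFF values lay at or under the level between genes. Emilin2, a glycoprotein of elastic fibres, read 1.67 and 2.65 against 3.72, and Crim1, a membrane protein that binds bone morphogenetic proteins, read 2.02 and 3.09 against 4.11. Neither passed limma after normexp (adjusted p = 0.102 and 0.114).

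Genes of the cytoskeleton and of small GTPase signalling were a further group by role. Cdc42ep3, an effector of the GTPase Cdc42, read 0.92 and 1.32 on the MEFF polyA arrays, 0.01 and 0.03 with total RNA and 4.62 in MEFB. MEFB was 9.86-fold above the nearer array (limma after normexp, adjusted p = 5.48e-05). Daam2, a formin that nucleates actin filaments, read -0.24 and -0.27 on the MEFF polyA arrays and 2.70 in MEFB (adjusted p = 0.06 as deposited and 3.22e-05 after normexp, limma). It was thus near the level between genes in MEFF only. Clip4, a protein with microtubule-binding CAP-Gly domains, read 0.30 and 0.45 against 2.21. Arhgap28, a GTPase-activating protein, read 1.65 and 2.56 against 3.66 and did not pass limma after normexp (adjusted p = 0.117).

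Genes of enzymes, transporters and membrane traffic followed. Qpct, the glutaminyl cyclase that forms pyroglutamate at the start of secreted peptides, had the largest gap of the 794 genes. Its 8 probes averaged -0.11 and -0.19 on the MEFF polyA arrays, -0.27 and -0.43 with total RNA and 3.67 in MEFB. All MEFF arrays were near the level between genes, and the fitted difference was 3.81 with SE 0.21 (limma, adjusted p = 0.06), or 5.16 with SE 0.43 after normexp (limma, adjusted p = 3.19e-06). Slc8a1, the sodium-calcium exchanger of the plasma membrane, read 0.54 and 0.93 on the MEFF polyA arrays and 3.83 in MEFB. Cyp1b1, a cytochrome P450 that oxidises steroids and aromatic compounds, read 1.43 and 2.46 against 4.91, and it was number 6 by level in MEFB. Slc5a7, the choline transporter of cholinergic neurons, read -0.23 and -0.38 against 1.51. Ehd3, a protein of endosome recycling, read 0.11 and 0.45 against 2.36. Rftn1, the lipid raft protein raftlin, read 0.41 and 0.80 against 2.60. Man2a1, a Golgi mannosidase, was high in both lines, at 3.02 and 3.98 against 5.09, and did not pass limma after normexp (adjusted p = 0.0956).

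The remainder included regulators and immune genes. Lbh, a transcription cofactor of limb and heart development, read 1.28 and 2.14 on the MEFF polyA arrays and 4.65 in MEFB. Six2, a homeobox factor of kidney progenitors, read 0.01 and 0.15 against 2.01, with MEFF near the middle of all probes. C3, the central complement component, read 0.69 and 1.13 against 2.64, and all 3 passed limma after normexp (adjusted p = 0.00132, 0.000918 and 0.0145). Nfkbie, an inhibitor of NF-kappa B, read 0.97 and 1.97 against 3.34 over 10 probes (limma after normexp, adjusted p = 0.0968). Ptprm, a receptor phosphatase of cell contacts, read 0.79 and 1.36 against 3.04. Tnfrsf21, a death-domain receptor of the TNF family, read -0.05 and 0.22 against 1.25. Ankrd12, an ankyrin repeat protein, read 1.54 and 2.10 against 3.52, and Fam82a1 read 0.74 and 1.20 against 2.43. The others past the rule were A930001N09Rik, the lincRNA 2810468N07Rik and the pseudogenes Gm4707 and Gm9311, with gaps from 1.00 to 1.27. Signal of a pseudogene can come from its parent gene.

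In MEFF, 10 of the 29 higher genes stayed under 0.5 on both polyA arrays, so for these the ratio had little signal to compare with. After loess normalization within arrays, 21 genes were higher by the rule. Among those that then fell short of it, Lbh had a gap of 0.87, C3 of 0.81 and Tnfrsf21 of 0.86.

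**Figure D3:**
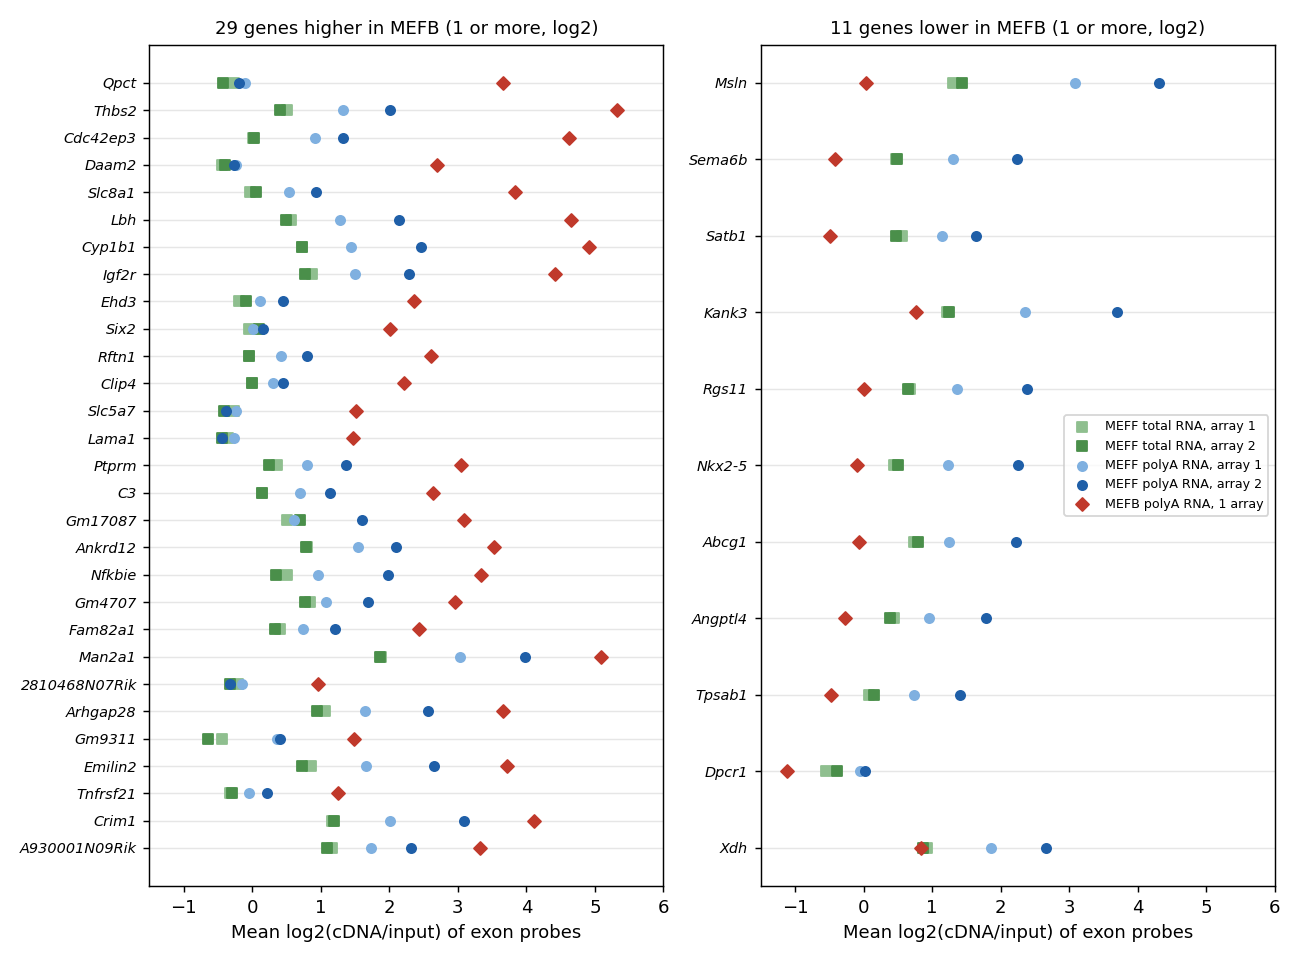
Exon level, as mean log2(cDNA/input), of the 29 genes higher (left) and 11 genes lower (right) in MEFB by the rule, ordered by gap, with 1 point per array. Red diamonds (MEFB) lie beyond both blue circles (MEFF polyA RNA) by 1 or more in each row; squares are MEFF total RNA.

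Of the genes lower in MEFB, Msln had the largest gap. Msln encodes mesothelin, a surface protein of mesothelial cells. Its 14 probes averaged 3.09 and 4.31 on the MEFF polyA arrays, 1.31 and 1.44 with total RNA and 0.04 in MEFB. It was number 27 and 29 of 794 genes on the MEFF polyA arrays and number 528 in MEFB, 8.27-fold below the nearer array. The fitted difference was -3.66 with SE 0.58 (limma, adjusted p = 0.195) and -5.27 with SE 0.44 after normexp (limma, adjusted p = 3.19e-06). Of the 11 lower genes 9 read under 0.5 in MEFB, and the exceptions were Kank3 and Xdh.

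Several of the lower genes encode regulators of transcription or signalling. Satb1, a chromatin organiser best known in T cells, read 1.14 and 1.64 on the MEFF polyA arrays and -0.49 in MEFB over 40 probes. Nkx2-5, a homeobox factor of the heart, read 1.23 and 2.25 against -0.10. Sema6b, a membrane semaphorin of axon guidance, read 1.30 and 2.25 against -0.41. Rgs11, which speeds the inactivation of G proteins, read 1.37 and 2.39 against 0.00. In these 4 genes the MEFB array was near or under the middle of all probes. Their adjusted p after normexp ran from 0.000148 for Nkx2-5 to 0.000529 for Satb1 (limma).

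Genes of lipid and purine metabolism were also among them. Abcg1, a transporter that exports cholesterol, read 1.24 and 2.23 on the MEFF polyA arrays and -0.07 in MEFB. Angptl4, a secreted inhibitor of lipoprotein lipase, read 0.96 and 1.79 against -0.26. Xdh, the enzyme that makes uric acid, read 1.87 and 2.67 against 0.83, close to its 0.92 and 0.87 with total RNA. Kank3, a member of the Kank family of actin regulators, read 2.36 and 3.70 against 0.76. Tpsab1, a tryptase of mast cells, read 0.74 and 1.41 against -0.47, and Dpcr1 read -0.06 and 0.02 against -1.11. Dpcr1 lay near the level between genes in MEFF and did not pass limma after normexp (adjusted p = 0.0547). In MEFB it lay far under that level, which was -0.167 there, so lower expression cannot be read from it. The input DNA over the exon probes of the 11 lower genes was higher in MEFB by a median of 0.34, against 0.14 over all genes and -0.01 over the 29 higher genes. With cDNA alone Tpsab1, Nkx2-5, Xdh and Dpcr1 had gaps of -0.77, -0.91, -0.52 and -0.35, short of the rule, while Msln kept -2.92 and Abcg1 -1.27.

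Introns gave a second reading of the same genes, from probes that the exon rule did not use. These probes lie on the same arrays that picked the genes, so a shared direction is not independent support. Of 592 genes with at least 20 intron probes, 3 were higher in MEFB by 1 or more (0.507%) and 2 lower (0.338%). Of the 29 higher genes 24 had such introns, and in 21 of these the introns lay above both MEFF polyA arrays, against 25.7% of all genes with introns at any distance. All 8 lower genes with measured introns lay below both, against 37.8% of all. Intron differences were smaller, with medians of 0.43 for the higher and -0.67 for the lower genes, where the exon medians were 1.83 and -1.84.

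The intron levels differed widely among genes of like exon difference. Lbh introns read -0.04 and 0.00 on the MEFF polyA arrays and 1.22 in MEFB, Cdc42ep3 introns -0.09 and -0.11 against 1.10, and Thbs2 introns -0.14 and -0.18 against 0.91. These were the 3 higher genes whose introns passed the rule too. Qpct, with the largest exon gap, had introns at -0.09 and -0.21 against 0.04, a gap of 0.13 over 138 probes. Lama1 introns read -0.18 and -0.36 against -0.29, inside the MEFF range. Among the lower genes, Msln introns read 0.77 and 1.76 on the MEFF polyA arrays and -0.39 in MEFB, and Kank3 introns 1.14 and 1.96 against 0.19. A polyA preparation can hold unspliced RNA, and double-stranded cDNA does not tell it from other transcripts of the same stretch.

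**Figure D4:**
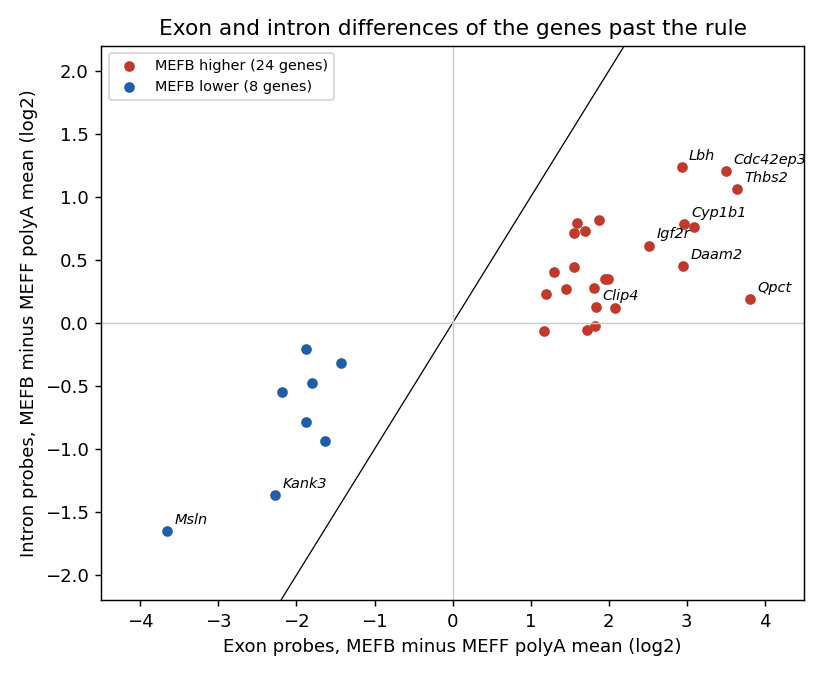
Difference of MEFB from the MEFF polyA mean over exon probes (x axis) and over intron probes (y axis), in log2, for the genes past the rule with 20 or more intron probes; the diagonal marks equal differences. All but a few higher genes (red) lie above 0 on both axes and all 8 lower genes (blue) below it, with intron differences smaller than those of exons.

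By position, many of the higher genes lay in the distal part of the chromosome. Of the 108 genes measured that start between 66 and 86 Mb of NCBIM37, 16 were higher by the rule (14.8%), against 13 of the 686 others (1.90%). These limits were chosen after the values were seen, so the shares are a description. Of the lower genes 1 lay in that stretch (0.926% of its genes) and 10 outside it (1.46%), near the 1.39% of all genes. In the stretch from 20 to 38 Mb, which includes the major histocompatibility complex, 2 of 396 genes were higher and 8 were lower. The median difference was 0.30 from 66 to 86 Mb and -0.11 from 20 to 38 Mb. The base composition moved with this: exon probes held a median of 49.0% GC in the distal stretch and 54.6% in the other. The input difference was 0.01 and 0.21 there. With cDNA alone, 14 of the 16 distal genes stayed past the rule. Qpct, Cdc42ep3, Fam82a1 and Cyp1b1 lie within 663 kb of each other, and they are 4 of the 6 genes measured in that span. The other 2, Gm17315 and 4921513D11Rik, had gaps of 0.64 and 0.78.

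Lists of genes by role, drawn up with earlier results of these arrays known, gave the following counts. Of the matrix and mesenchyme list, 20 genes were measured, and 6 were higher and 1 lower by the rule (35.0%, against 5.04% of all genes). The 6 were Thbs2, Lama1, Emilin2, Crim1, Cdc42ep3 and Cyp1b1, and the lower one was Angptl4. Cdc42ep3, Cyp1b1 and Angptl4 are described above under other roles, so the share is not one of matrix genes alone. The median difference of the list was 0.28, against -0.05 over all genes. Runx2, the bone transcription factor, lay close in both lines, with 1.54 and 2.30 against 2.42. Notch3, a receptor of mural cells, read 2.49 and 3.65 against 1.96, a gap of -0.53, and it passed limma after normexp as lower (difference -1.61, adjusted p = 0.0416). After normexp limma passed 4 genes of the list as higher and 2 as lower. Vegfa, the vascular growth factor, read 3.44 and 4.57 against 3.59, inside the MEFF range. The list was not drawn up independently of these data.

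Lists of housekeeping genes and of cell cycle and DNA repair genes were read in the same way. Psmb8, a member of both the housekeeping list and that of antigen presentation, read -0.07 and 0.06 on the MEFF polyA arrays and -0.05 in MEFB. Of 14 housekeeping genes 0 were past the rule and 0 passed limma after normexp, and their median difference was -0.02. The tubulin gene Tubb5 read 4.05 and 5.46 on the MEFF polyA arrays and 4.68 in MEFB, and the splicing factor gene Srrm2 read 4.58 and 6.30 against 5.64. Of 16 genes of the cell cycle and DNA repair 0 were past the rule, with a median difference of -0.18. Among them the histone chaperone gene Chaf1a, at 3.85 and 5.13 against 3.51, passed limma after normexp as lower (difference -1.84, adjusted p = 0.0264). At 5.04% of all genes past the rule, a count of 0 in lists of this size is near the share over all genes. Of 7 genes of antigen presentation and complement, C3 alone was past it, and Tapbp, which loads peptides on class I molecules, read 2.43 and 3.77 against 3.60.

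The labelled cell type could be checked only in part, because most genes that define fibroblasts lie on other chromosomes. Markers of other cell types were mostly low in both lines. Of 14 immune genes 0 were past the rule, which is also near the 5.04% of all genes, and the median levels were -0.11 and -0.20 on the MEFF polyA arrays and -0.41 in MEFB. The class II genes H2-Ab1 and H2-Aa and the macrophage gene Emr1 read under 0 on all 3 polyA arrays. A further class II gene, H2-Eb1, read 0.13 and 0.41 on the MEFF polyA arrays and -0.39 in MEFB, and the macrophage gene Aif1 read 0.04 and 0.36 against -0.06. Pla2g7 was the highest of the list in both lines, with 1.54 and 2.63 against 1.64. Of 15 epithelial, neural and muscle genes 0 were past the rule, and Epcam, the defining surface protein of epithelia, read -0.35 and -0.26 against -0.58. Myom1, a protein of the sarcomere, read -0.24 and -0.26 against 0.69, a gap of 0.94 (limma after normexp, adjusted p = 0.0467). The claudin gene Cldn9, at 0.58 and 1.32 against -0.01, passed as lower (adjusted p = 0.0218).

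**Figure D5:**
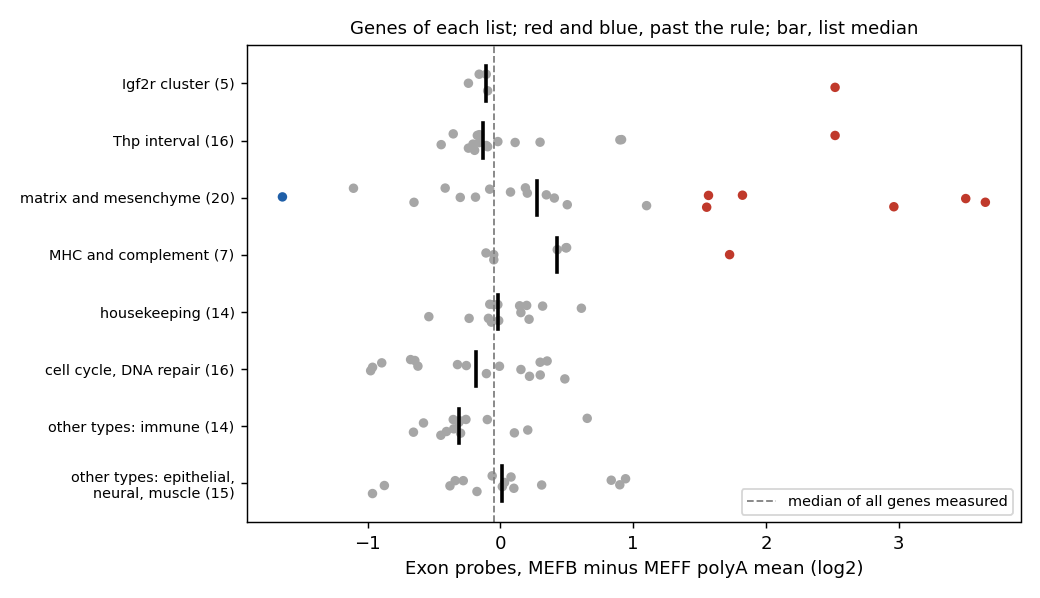
Difference of MEFB from the MEFF polyA mean over exon probes, in log2, for each measured gene of 8 lists, with the number measured in brackets, a black bar at the list median and a dashed line at the median of all genes. Red and blue points, past the rule, lie mainly in the matrix and mesenchyme list.

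Windows of 5 kb need no annotation. Of 15383 windows, 57 were higher in MEFB by the rule (0.371%) and 22 lower (0.143%). All 79 passed limma after normexp, where 488 windows passed in all (3.17%). On the intensities as deposited, limma passed 1 window (0.0065%), at the end of Cdc42ep3, where the MEFF polyA arrays read 0.10 and 0.19 and MEFB 2.92 (adjusted p = 0.0363). Since the rule and limma used the same arrays, windows that pass both do not have independent support. The higher windows formed 31 runs, 17 of a single window, and the lower ones 6 runs, 4 of a single window. Placed runs overlapped 13 of the 29 higher genes and 4 of the 11 lower genes, in the same direction. Qpct, Daam2 and Six2 were among those without a run. Runs also lay in genes that were not past the rule over their exons, with windows at 0.76 and 0.97 against 2.60 in Map4k3, 0.17 and 0.30 against 1.51 in Efna5 and 1.499 and 1.87 against 2.94 in Sos1.

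The longest run was the lower one over Airn, 16 windows in 80 kb, each of which was past the rule. Its mean was 1.83 and 2.86 on the MEFF polyA arrays and 0.06 in MEFB, and the highest adjusted p in it after normexp was 3.94e-05 (limma). It made up 16 of the 22 lower windows. The next was a run of 10 kb over Msln and Mslnl, at 0.95 and 1.72 against -0.27, and single windows lay in Kank3, Rgs11 and Satb1. Over Igf2r, 2 single windows were past the rule in the other direction. Their differences from the MEFF polyA mean were 1.49 and 1.19 as deposited and 1.78 and 1.39 with cDNA alone. They fell to 0.435 and 0.866 with probe medians and to 0.606 and 0.794 after loess.

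Among the higher runs, those over Cdc42ep3 and Thbs2 spanned 25 kb each. The Cdc42ep3 run read -0.03 and -0.01 on the MEFF polyA arrays and 1.53 in MEFB, and the Thbs2 run 0.19 and 0.30 against 1.85. Slc8a1 held 3 runs. A run of 25 kb from 81979181 to 82003060 on NCBIM37, inside the gene and without an exon probe, read -0.07 and -0.22 against 0.95. A run of 10 kb from 82038255 to 82047850, also inside the gene and with 5 exon probes, read -0.16 and -0.33 against 1.16. A run of 15 kb at the end of the gene read 0.06 and 0.00 against 1.99. In it, the window from 81774090 to 81778987, past the annotated end of the gene at 81785359 on the minus strand, read -0.06 and -0.31 on the MEFF polyA arrays and 1.74 in MEFB. Runs of 20 kb lay over Lbh and Man2a1, and a run of 15 kb over Cyp1b1 read 0.47 and 0.69 against 2.33.

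Of the 31 higher runs 26 could be placed on NCBIM37, and 4 of these overlapped no annotated gene. They began at 17999864, 41003769, 85940625 and 87496643. The window at 41003769 was at the level between genes on the MEFF polyA arrays, with -0.04 and -0.01, and read 1.16 in MEFB. The run at 17999864 read 0.38 and 0.66 against 1.73, the window at 85940625 read 0.22 and 0.48 against 1.66, and that at 87496643 read 0.57 and 0.98 against 2.03. The 4 passed limma after normexp, with adjusted p values from 0.000428 to 0.00935 at their windows. They were singled out after their values were seen. The longest higher run that could not be placed, 15 kb from file position 6245000, read 0.39 and 0.69 on the MEFF polyA arrays and 1.64 in MEFB, and the lower window at file position 5750000 read 0.78 and 1.36 against -0.26.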

How the data were processed

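The arrays are NimbleGen 2-colour tiling arrays with 388000 probes, 387986 of them on chromosome 17. Per the labels, Cy3 carried double-stranded cDNA and Cy5 sonicated input DNA of the same line, amplified with T7 polymerase. The deposited intensity values are raw, extracted by the authors with NimbleScan 2.2.34, per the file headers. From 1 to 81 probes per channel reached the scanner limit and were kept. Dyes were not swapped, so shared dye effects cancel only between arrays, and the number of arrays limits the precision.

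Ratios were centred on the array median and averaged per window (8 or more probes). Which genome build the file's positions follow is not stated in these sources. Blocks of 10 kb were therefore placed on NCBIM37 by the probes' avoidance of repeats and by the input signal against base composition, with no cDNA value. A block needed a posterior of 0.95, and 90.72% of probes were placed. At placed positions the repeat share under probes was 1.46%, against 14.3% at file positions. Genes are those of GENCODE vM1. limma 3.58.1 in R 4.3.3 was fitted with 3 group means and 2 residual degrees of freedom. It was also run on simulated data in which MEFB was given the spread of the MEFF arrays. That run cannot show how the lone MEFB array varies. The p-values measure only the spread between arrays, which may be technical.

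Named genes are, per direction, the 12 with the largest gap, measured genes of the Igf2r cluster and list members past the gap rule (some are not reported here); named runs are the 8 longest per direction, the 5 windows with the largest gap and those in the Thp interval. The rest past the rule, and examples from lists, were named after their values were seen. The comparison, members and lists were chosen with earlier results of these data known. Alternatives were the probe median, other window sizes, loess (span 0.3), quantile, normexp (offset 50), cDNA alone, removal of the lowest 10% of input, a trended prior, the polyA groups alone, other gaps and each array left out. Counts over genes, and normexp with an array left out, were added after seeing the data.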

Additional observations from a re-analysis of the deposited data

How the results depend on the processing

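No paired analysis was possible because the replicate numbers were given in accession order and MEFB has 1 array. The number of higher windows was 57 as deposited, 21 after quantile normalization, 216 after normexp, 158 in 2 kb windows, 22 in 10 kb windows, 412 at a gap of 0.5 and 11 at a gap of 1.5. Lower windows numbered 22 as deposited, 109 after normexp, 50 in 2 kb windows, 8 in 10 kb windows, 116 at a gap of 0.5 and 13 at 1.5. Without 1 MEFF polyA array, where the rule uses the other alone, higher windows ranged from 81 to 132 and lower ones from 26 to 80. Higher genes numbered 29 as deposited, 21 after loess, 23 after quantile normalization, 31 after normexp, 58 at a gap of 0.5 and 16 at 1.5. With the lowest input removed they numbered 24, of 732 genes still measured. Lower genes numbered 11 as deposited, 20 after quantile normalization, 40 after normexp, 7 with cDNA alone, 32 at a gap of 0.5 and 4 at 1.5. Without 1 MEFF polyA array the ranges were 31 to 93 and 11 to 60. The high counts came without the second MEFF polyA array for higher genes (93) and without the first for lower genes (60). limma passed 1 window as deposited, 0 with probe medians, 448 after loess, 1047 after quantile normalization, 488 after normexp, 18 with cDNA alone, 405 with a trended prior, 0 with the polyA groups alone, 4 in 2 kb windows and 8 in 10 kb windows. For genes it passed 0 as deposited, 5 with probe medians, 19 after loess, 161 after quantile normalization, 51 after normexp and 64 with a trended prior. Without each array in turn, limma passed from 0 to 6984 windows and from 0 to 572 genes; without a MEFF polyA array its lone partner is assumed to vary like the total RNA arrays. With normexp, leaving out the first or the second MEFF polyA array gave 2045 or 759 windows and 367 or 130 genes, and leaving out either total RNA array gave 338 windows and 22 genes. The cause of these shifts was not tested. Over the 31 named genes and 8 alternatives, 4 values changed sign. Slc22a2 (-0.10 as deposited) was 0.021 after quantile normalization, 0.19 after normexp, 0.063 with cDNA alone, and from -0.285 to 0.094 without 1 MEFF polyA array. No named run changed sign in 128 values. Most named genes and all named runs were chosen by their gaps on these same arrays, so a kept sign is not independent support. Sizes did change. The Igf2r window at file position 12090000 went from 1.49 as deposited to 0.435 with probe medians.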
